A study of Mus musculus with 6 samples.

Results

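The collagen chain genes are the protein-coding mouse genes that encode the α chains from which every collagen trimer is built. They were chosen by symbol alone, as the genes named Col, a type number, the letter a and a chain number, and matched to the identifiers of the count table, which gave 44 genes among the 55401 counted. By class, 11 encode fibrillar chains, 9 network-forming chains (types IV, VIII and X), 9 FACIT chains (fibril-associated collagens with interrupted triple helices) and 15 other chains, of which 6 belong to the beaded-filament type VI, 1 to the anchoring fibril type VII, 4 to transmembrane collagens, 2 to multiplexins (types XV and XVIII) and 2 to none of these classes (types XXVI and XXVIII). Bulk RNA-seq was done on C3H10T1/2 cells, a mesenchymal stem cell (MSC) line derived from mouse embryo, carrying a control hairpin (shControl, wild-type by label), a hairpin against the transcription factor NFIB (shNFIB) or a hairpin against the histone H3K4 methyltransferase MLL1 (shMLL1, gene Kmt2a). Each line was sampled at confluence before treatment (day 0) and on day 7 in osteogenic medium. This medium contained β-glycerophosphate, ascorbic acid 2-phosphate and dexamethasone, so that all day 7 libraries share these 3 agents. No line was sampled at day 7 without the medium, so the medium and the time in culture cannot be told apart. All 3 lines carry a hairpin construct, the hairpin against NFIB targets the untranslated 3′ end that its isoforms share, and whether a line was a clone or a pool of cells is not given in the sources used here. The study compared the lines to ask how depletion of NFIB or MLL1 changes the osteogenic response.

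Each of the 6 conditions was sequenced as 1 library of 21608680 to 34774066 counts. A comparison of 2 libraries therefore has no replicate check, and it is given as a fold change of normalised counts with a 95% interval that covers counting error only. The 2 kinds of comparison with a test pool libraries: day 7 against day 0 over the 3 lines, and each knockdown line against shControl over both days. Whether the change between the days differs between lines could not be tested, because that model leaves no spread between libraries to test against. The targets of the hairpins were checked first. Nfib stood at 116 CPM (counts scaled to the library total times its TMM factor) at day 0 and 83.5 CPM at day 7 in shControl, against 35.3 and 8.15 CPM in shNFIB. Kmt2a stood at 74.7 and 66.3 CPM in shControl, against 30.9 and 34.8 CPM in shMLL1. Both targets were lower in their own line at both days. Nfib was also 65.5 CPM at day 0 in shMLL1, below its shControl level.

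Collagen chains are synthesised in the endoplasmic reticulum, where they are hydroxylated on proline and lysine, folded into triple helices and then secreted, trimmed and crosslinked. Fibrillar collagens form the tensile fibres of the matrix, and type I, a trimer of α1(I) and α2(I) chains, is the main organic component of bone. Types II, IX, X and XI are known from cartilage, type IV from basement membranes, type VI from the pericellular matrix, and FACIT chains from the surface of fibrils. Osteoblast differentiation in culture needs ascorbic acid, a cofactor of the prolyl hydroxylases that stabilise the collagen helix.

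Of the 44 genes, 28 had at least 10 counts in every library and 35 had at least 10 in some library. Another 6 genes reached between 1 and 9 counts in their highest library (Col6a4, Col6a5, Col6a6, Col19a1, Col24a1 and Col26a1). Col13a1, Col22a1 and Col25a1 had 0 counts in every library, which allows levels of up to 0.0939 to 0.123 CPM depending on the library. In the model over all libraries, 34 genes passed the filter on low counts, Col10a1 being the gene with 10 counts in some library that did not. Col10a1, the network-forming collagen of hypertrophic cartilage, had 9, 15 and 4 counts at day 0 in shControl, shNFIB and shMLL1 and 3 counts in each day 7 library.

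Collagen genes took 1.31% of all counts in shControl, 1.83% in shNFIB and 0.900% in shMLL1 at day 0, and 1.04%, 1.07% and 1.21% at day 7. The lines differed more at day 0 than at day 7. Fewer cells of a type and less RNA per cell cannot be told apart in bulk libraries. On the scale of CPM per kb of exon, which allows levels of different genes to be compared, fibrillar chains made up 59.3%, 66.0% and 71.3% of the collagen signal at day 0 and 55.4%, 43.5% and 51.3% at day 7 in shControl, shNFIB and shMLL1. All 3 lines had a smaller fibrillar share on day 7. Network chains had their highest share, 28.9%, in shNFIB at day 7, where the other libraries ranged from 13.2% to 17.8%. FACIT chains stayed between 2.31% and 3.95%. The other chains, nearly all of it type VI, had their lowest share, 10.1%, in shMLL1 at day 0 and their highest, 30.3%, in the same line at day 7.

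**Figure D1:**
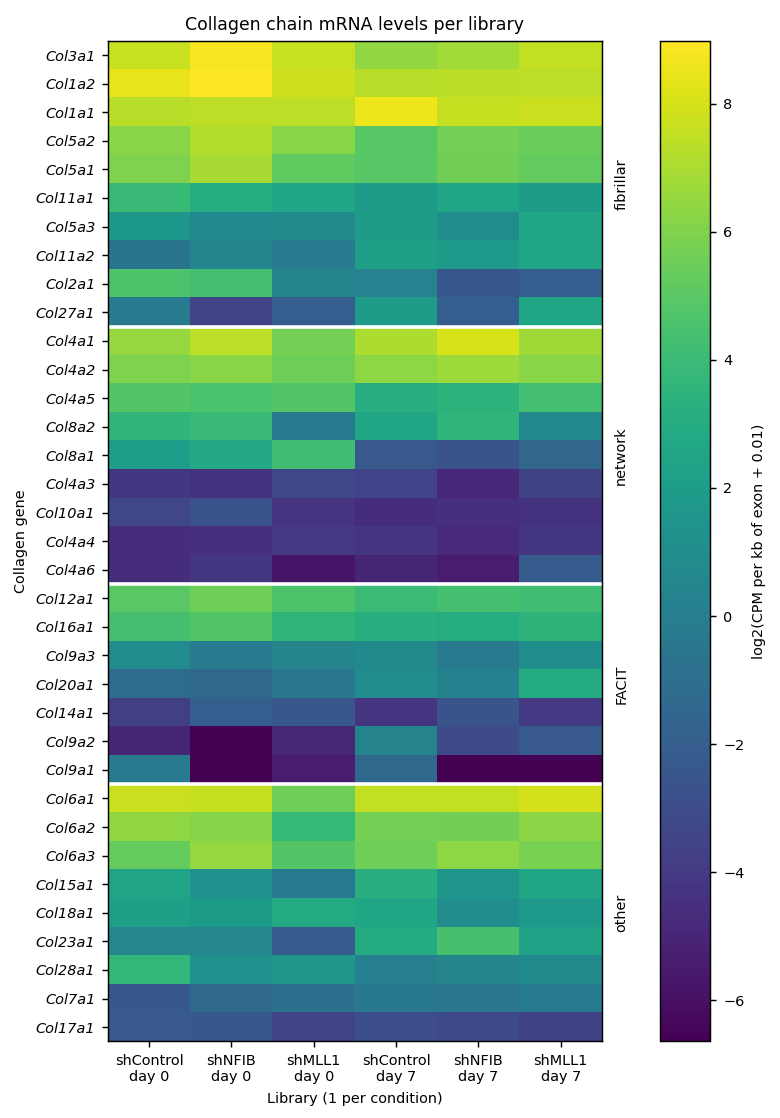
Levels of the 35 collagen genes with at least 10 counts in some library, as log2(CPM per kb + 0.01), with 1 row per gene grouped by class and 1 column per library. Col1a1, Col1a2, Col3a1, Col4a1 and Col6a1 are among the brightest rows in most libraries, and Col6a1 and Col6a2 are darkest in shMLL1 at day 0.

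The 10 genes with the highest median level per kb were, in order, Col3a1, Col1a2, Col6a1, Col1a1, Col4a1, Col4a2, Col5a2, Col6a2, Col6a3 and Col5a1. In shControl at day 0, Col1a2 led with 358 CPM per kb, followed by Col6a1 with 211, Col3a1 with 202 and Col1a1 with 159. In shControl at day 7 the order was Col1a1 with 385, Col6a1 with 188 and Col1a2 with 157 CPM per kb. Col1a1 led only in that library. In shNFIB at day 7 the leader was Col4a1, with 261 CPM per kb, and in shMLL1 at day 7 it was Col6a1, with 247. These orders depend on the gene length used, here the union of exons, which is 12426 bases for Col1a2 while its longest transcript is 5348. In plain CPM at day 7, Col1a2 was above Col4a1 in shNFIB, with 2081 against 1948. It was also above Col6a1 in shMLL1, with 2112 against 1083 CPM. The 5 highest genes of a library held 67.6% to 74.4% of its collagen signal per kb.

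Over the 3 lines, 6 of the 34 tested collagen genes rose and 7 fell from day 0 to day 7, by edgeR's quasi-likelihood test at an adjusted p of 0.05. These are shares close to those of all genes, of which 16.9% were called higher and 16.7% lower, and the median day effect was -0.05 for the collagen genes and -0.005 for all genes, as log2 fold changes. The genes that rose were Col9a2, Col23a1, Col27a1, Col20a1, Col11a2 and Col7a1, and those that fell were Col8a1, Col2a1, Col5a2, Col4a5, Col16a1, Col11a1 and Col12a1. By class, 2 of 10 fibrillar genes rose and 3 fell, 0 of 8 network genes rose and 2 fell, 2 of 7 FACIT genes rose and 2 fell, and 2 of 9 other genes rose and 0 fell. The fibrillar and FACIT medians were -0.89 and -0.88, the network median -0.05 and that of the other chains 0.36. At an unadjusted p of 0.05, 9 collagen genes were higher and 11 lower, beside 3971 higher and 3902 lower of all 16742 genes tested. Calls of 6 genes held with each line left out in turn (Col8a1, Col2a1, Col11a2, Col20a1, Col23a1 and Col27a1), and the other 7 all lost the call without shControl, leaving 4 higher and 2 lower. Col9a2 passed the filter on low counts only through the day 7 libraries, so its call is given as a description.

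**Figure D2:**
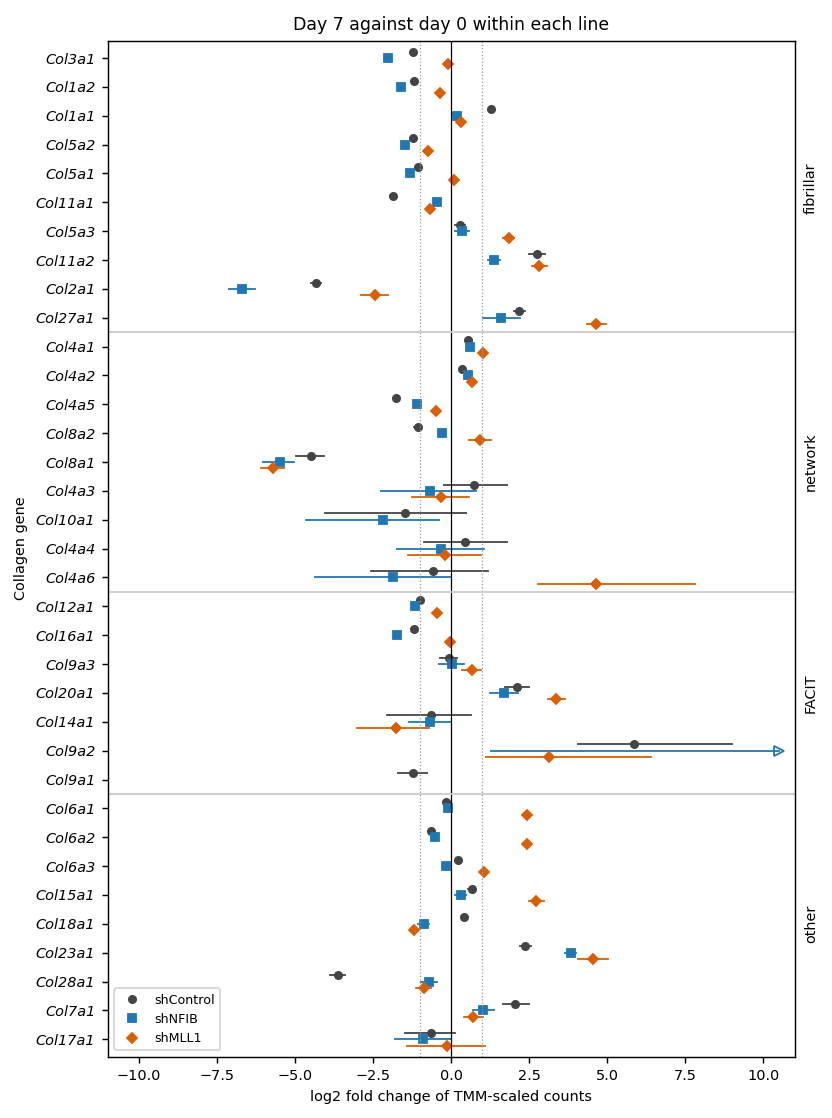
Log2 fold change of day 7 over day 0 for collagen genes with at least 10 counts in the pair of libraries, 1 marker and colour per line, with 95% counting intervals as bars and dotted lines at 2-fold. An open arrow at the axis edge marks a gene with 0 counts in a library, and Col8a1 and Col2a1 lie far to the left in every line while Col6a1 and Col6a2 lie right of the 2-fold line in shMLL1 alone.

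Line by line, 7 of 35 counted collagen genes were more than 2-fold higher and 13 more than 2-fold lower at day 7 in shControl, where 23.2% of all genes were higher and 14.9% lower past that fold. In shNFIB the counts were 6 higher and 11 lower of 34, against 16.9% and 13.8% of all genes. In shMLL1 they were 12 higher and 4 lower of 33, against 25.9% and 19.5% of all genes. The median log2 change of the collagen genes was -0.60 in shControl, -0.48 in shNFIB and 0.32 in shMLL1, beside medians over all genes of 0.02, -0.02 and 0.06. Scaling to the library size alone instead of TMM moved the median of all genes in the shMLL1 pair by 0.207. More collagen genes were past 2-fold downward than upward in shControl and shNFIB, and more were past it upward than downward in shMLL1.

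Type I collagen, the fibrillar collagen of bone, had chains that differed between the days in opposite directions in the control line. Col1a1, which encodes α1(I) (chromosome 11, GRCm38), stood at 1044, 1130 and 1106 CPM at day 0 and at 2526, 1277 and 1382 CPM at day 7 in shControl, shNFIB and shMLL1. The day 7 shControl library was therefore apart from the other 5. Its log2 change at day 7 was 1.28 (95% counting interval 1.26 to 1.29) in shControl, 0.18 in shNFIB and 0.32 in shMLL1, and the pooled day effect of 0.57 had an adjusted p of 0.197. Col1a2, which encodes α2(I) (chromosome 6), stood at 4443, 6289 and 2702 CPM at day 0 and at 1948, 2081 and 2112 CPM at day 7. All 3 day 7 libraries were below all 3 day 0 libraries, and the pooled effect of -1.06 (SE 0.35) had an adjusted p of 0.0534. Summed CPM of the 9 osteoblast markers listed, of which 1 had 0 counts in every library, was 265, 256 and 268 at day 0 and 1558, 277 and 364 at day 7. The library with the highest Col1a1 was thus also the one with the highest osteoblast marker sum, of which Spp1 (osteopontin) made up 1381 CPM. Runx2, Dlx5, Ifitm5 and, with few counts, Sp7 and Bglap were also highest in shControl at day 7. Alpl, with 3.64, 7.27 and 0.082 CPM at day 7, and Phex, with 0.820, 8.25 and 6.19 CPM, were highest in shNFIB. The part of these markers in the Col1a1 level was not tested. The 8 adipocyte markers listed summed to 51.0, 63.5 and 18.2 CPM at day 0 and 134, 93.4 and 30.2 CPM at day 7, again highest in shControl at day 7. Of these markers, 6 were tested and 4 called higher by day. Plin1, Cidec and Lpl were among those called, but they passed the filter on low counts only through day 7 libraries, so their calls are given as a description. Plin1 had 0 counts at day 0 and 472, 9 and 28 at day 7, and Cidec 0 and then 681, 5 and 17. Lpl had 6, 7 and 0 counts and then 1084, 22 and 4, so most counts of Plin1, Cidec and Lpl came from shControl at day 7. Pparg, the remaining gene called (log2 fold change 0.69, adjusted p = 0.0246 in the quasi-likelihood test), was highest in shNFIB at both days. It stood at 27.1, 52.2 and 12.0 CPM and then 42.0, 84.2 and 20.9 CPM. Cebpa and Fabp4 were tested and not called. Cebpa stood at 19.0, 7.35 and 2.58 CPM and then 10.3, 4.03 and 2.46 CPM, and Fabp4 at 4.63, 3.77 and 3.58 CPM and then 4.63, 3.92 and 4.84 CPM. The 5 blood cell markers summed to 1.36 to 7.58 CPM, with 2 of them at 0 counts in every library.

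**Figure D3:**
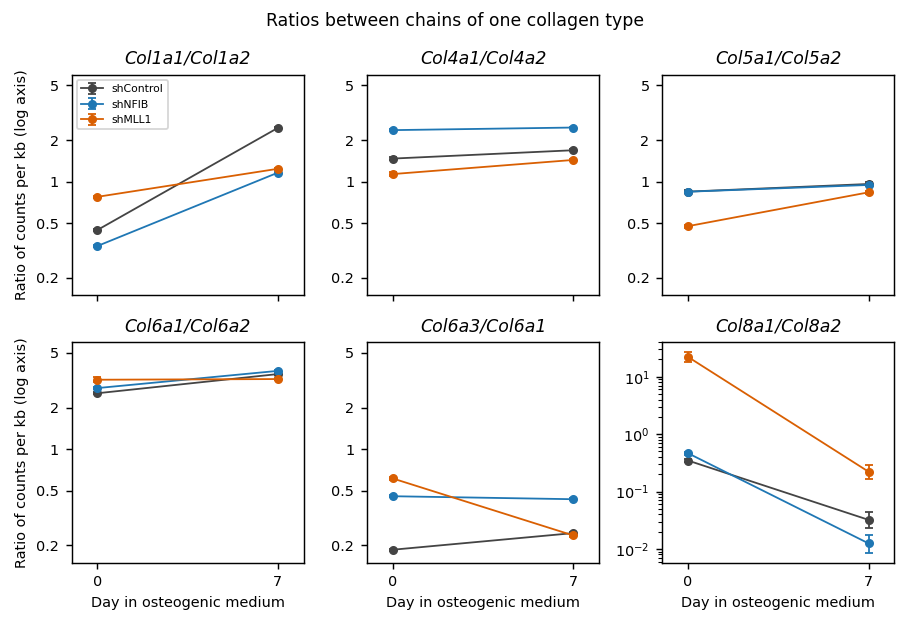
Ratios of the CPM per kb of chains that assemble together, on a log axis, at day 0 and day 7 in each line with 95% counting intervals. The Col1a1/Col1a2 ratio rises from 0.445 to 2.46 in shControl, and the Col8a1/Col8a2 ratio of shMLL1 at day 0 stands at 22.1, above the other 5 libraries.

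The transcripts of chains that share a trimer were compared as ratios per kb. The Col1a1 to Col1a2 ratio was 0.445, 0.340 and 0.775 at day 0 and 2.46, 1.16 and 1.24 at day 7 in shControl, shNFIB and shMLL1. It was higher at day 7 in every line, by 5.52-fold in shControl, 3.41-fold in shNFIB and 1.60-fold in shMLL1. The level of such a ratio depends on the length used for each gene, the union of Col1a2 exons being 12426 bases and its longest transcript 5348 bases, but its change between libraries does not. The Col8a1 to Col8a2 ratio differed most between the days, its day 7 value being 0.0926, 0.0269 and 0.01001 times that of day 0 in shControl, shNFIB and shMLL1. Col4a1 to Col4a2 lay between 1.13 and 2.47, with both shNFIB libraries highest, and Col6a1 to Col6a2 lay between 2.55 and 3.70. Col5a1 to Col5a2 was 0.836 to 0.961 in 5 libraries and 0.475 in shMLL1 at day 0. Col6a3 to Col6a1 was 0.186, 0.455 and 0.613 at day 0 and 0.245, 0.433 and 0.236 at day 7, so that it was 0.385 times its day 0 value at day 7 in shMLL1.

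Among the other fibrillar chains of connective tissue, type III and type V chains were lower at day 7 in shControl and shNFIB. Col3a1, whose product co-assembles with type I in soft tissues, stood at 1980, 4431 and 2013 CPM at day 0 and 854, 1097 and 1871 CPM at day 7. Its pooled day effect of -1.13 had an adjusted p of 0.0661, and the shMLL1 pair differed by only -0.11 on the log2 scale. Col5a2, a chain of the type V collagen that nucleates type I fibrils, fell over the 3 lines by 1.16 on the log2 scale (SE 0.26, adjusted p = 0.0144), from 699, 1386 and 718 CPM to 297, 498 and 430 CPM. Its days did not overlap, and the call was lost without shControl or without shNFIB. Col5a1 stood at 524, 1036 and 302 CPM at day 0 and 253, 417 and 318 CPM at day 7 (pooled effect -0.78, adjusted p = 0.0886). Col5a3, the third type V chain, went the other way in value, from 21.5, 10.48 and 10.9 CPM to 26.0, 13.3 and 39.1 CPM, with an adjusted p of 0.0948.

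The fibrillar chains known from cartilage did not move as a block. Col2a1, the type II chain, stood at 223, 182 and 12.0 CPM at day 0 and at 10.96, 1.76 and 2.21 CPM at day 7 in shControl, shNFIB and shMLL1. Every line was lower at day 7, and the shMLL1 line was already near the day 7 level of shControl before treatment. The pooled day effect on Col2a1 was -4.50 (SE 0.75, adjusted p = 0.0054). Col11a1, a type XI chain, fell by 1.01 on the log2 scale (SE 0.30, adjusted p = 0.0376), from 186, 105 and 78.2 CPM to 51.0, 76.5 and 49.1 CPM, a call lost without shControl. Col11a2, another chain of the same type, rose by a log2 fold change of 2.30 (SE 0.32, adjusted p = 0.00304), from 4.57, 9.25 and 5.96 CPM to 30.9, 23.8 and 42.0 CPM. Every day 7 library was above every day 0 library for Col11a2. Of the 8 chondrocyte markers listed, 5 were tested, and 2 of them rose and none fell by day. Those that rose were Comp, by a log2 fold change of 4.64 (adjusted p = 0.000341), and Prg4, by 2.35 (adjusted p = 0.0176). The summed level was 197, 142 and 72.1 CPM at day 0 and 158, 180 and 128 CPM at day 7. Sox9, which was not called, made up 187, 87.0 and 68.9 CPM of it at day 0 and 119, 88.8 and 96.3 CPM at day 7. Acan (aggrecan, a defining cartilage proteoglycan) had 0 counts in every library.

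Col27a1 encodes a fibrillar chain known from developing cartilage. It stood at 10.99, 1.08 and 3.15 CPM at day 0 and at 49.8, 3.25 and 79.0 CPM at day 7 in shControl, shNFIB and shMLL1. It was higher at day 7 within each line, by 4.53-fold, 3.01-fold and 25.1-fold, although the shNFIB library at day 7 lay below the shControl library at day 0. The pooled day effect was 2.82 (SE 0.56, adjusted p = 0.0102), and the call was lost when the line was left out of the model.

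**Figure D4:**
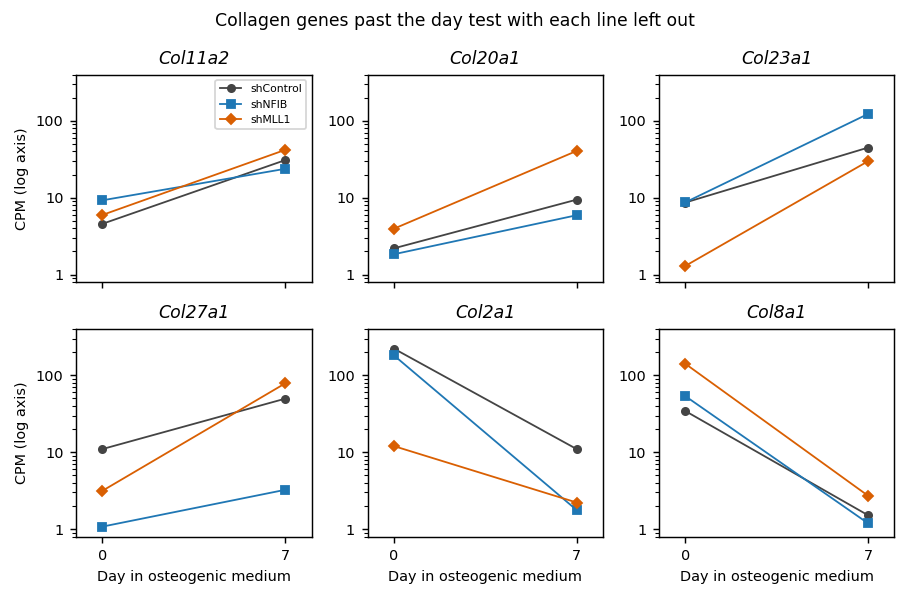
CPM on a log axis of the 6 collagen genes whose day call held with each line left out, with 1 point per library joined within a line from day 0 to day 7. Col2a1 and Col8a1 descend in all 3 lines, Col11a2, Col20a1, Col23a1 and Col27a1 ascend in all 3, and the shNFIB line is the lowest for Col27a1 at both days.

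Among network-forming collagens, Col8a1 had the largest fall of any collagen gene tested. Type VIII collagen forms hexagonal lattices beneath endothelia, and Col8a1 encodes its α1 chain. Its level was 34.4, 53.8 and 142 CPM at day 0 and 1.51, 1.18 and 2.70 CPM at day 7, that is, 1100, 1700 and 4280 counts against 46, 35 and 66. All 3 lines fell into the same low range, by 22.8-fold in shControl, 45.3-fold in shNFIB and 52.3-fold in shMLL1, and the pooled effect was -5.26 (SE 0.32, adjusted p = 0.000341). Its partner chain Col8a2 did not follow it. Col8a2 stood at 57.0, 66.5 and 3.68 CPM at day 0 and 27.0, 54.4 and 7.01 CPM at day 7, being lower at day 7 in shControl and shNFIB and higher in shMLL1. The Col8a1 to Col8a2 ratio per kb ran from 0.0125 in shNFIB at day 7 to 22.1 (95% counting interval 18.3 to 26.9) in shMLL1 at day 0. The 5 endothelial markers listed summed to at most 0.984 CPM in any library, so the markers of that cell type were near 0. The 5 smooth muscle markers summed to 1523, 1494 and 1274 CPM at day 0 and 258, 131 and 165 CPM at day 7, nearly all of it Acta2 (1516, 1491 and 1273 CPM, then 255, 130.1 and 163 CPM). Of the 4 tested, 1 fell and 1 rose by day. The one that rose, Myh11, had 3, 4 and 4 counts at day 0 and 24, 24 and 20 at day 7. It passed the filter on low counts only through the day 7 libraries, so its call is given as a description. The part of the smooth muscle marker shift in the fall of Col8a1 was not tested.

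The type IV chains of the basement membrane are encoded as neighbouring pairs that start from a shared region. Col4a1 (chromosome 8, 11198423 to 11312826, minus strand, GRCm38) and Col4a2 (11312805 to 11449287, plus strand) lie head to head with 22 bp of exon in common. Col4a1 stood at 682, 1298 and 396 CPM at day 0 and 999, 1948 and 794 CPM at day 7, and Col4a2 at 411, 486 and 310 CPM and 524, 699 and 490 CPM. Both had higher values at day 7 in every line, by log2 changes of 0.55, 0.59 and 1.00 for Col4a1 and 0.35, 0.52 and 0.66 for Col4a2, with no day call (adjusted p = 0.0701 for Col4a1). Col4a5, on the X chromosome, fell by 1.13 on the log2 scale (SE 0.27, adjusted p = 0.0182), from 190, 156 and 186 CPM to 56.3, 72.7 and 133 CPM, a call lost without shControl. Its neighbour Col4a6 had 8, 12 and 2 counts at day 0 and 5, 3 and 43 at day 7. The 43 counts in shMLL1 stood apart, with a log2 change of 4.64 (95% counting interval 2.79 to 7.82) from the 2 counts before. Col4a3 and Col4a4, the remaining pair, had 7 to 28 and 9 to 17 counts.

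FACIT chains, which decorate fibrils, split by day. Col12a1 fell by 0.88 on the log2 scale (SE 0.24, adjusted p = 0.0289), from 492, 713 and 379 CPM to 247, 316 and 279 CPM, and Col16a1 fell by 1.01 (SE 0.31, adjusted p = 0.0418), from 139, 181 and 82.0 CPM to 60.5, 54.4 and 79.0 CPM. Both calls were lost without shControl or without shNFIB, and the shMLL1 pair of Col16a1 differed by only -0.05. Col20a1 rose by a log2 fold change of 2.39 (SE 0.36, adjusted p = 0.00377), from 2.19, 1.84 and 3.94 CPM to 9.45, 5.92 and 40.7 CPM. All 3 lines were higher at day 7, shMLL1 the most. Col20a1 shares 79 bases of exon with another gene on the same strand. That gene had 187, 234 and 174 counts at day 0 and 429, 327 and 667 at day 7, also highest in shMLL1 at day 7. The part of its reads in the Col20a1 counts was not tested.

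Type IX collagen, the FACIT that coats type II fibrils in cartilage, had chains that differed from each other. Col9a2 had 2, 0 and 2 counts at day 0 and 117, 10 and 15 counts at day 7 in shControl, shNFIB and shMLL1. The control library of day 7 held most of these counts, and without shControl the gene was not called. Within shNFIB the level was at least 3.56-fold higher at day 7, set against a floor of 3 counts in the day 0 library. Col9a1 had 142, 0 and 2 counts at day 0 and 58, 0 and 0 at day 7, so its counts came almost wholly from shControl. Col9a3 was similar at both days, with 7.11, 3.45 and 5.40 CPM and then 6.69, 3.48 and 8.48 CPM.

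Of the remaining chains, the transmembrane collagen gene Col23a1 had the largest rise of the 9 tested. It stood at 8.64, 8.68 and 1.29 CPM at day 0 and at 44.9, 123 and 29.9 CPM at day 7, higher by 5.20-fold, 14.2-fold and 23.1-fold. The days did not overlap, and the pooled effect was 3.53 (SE 0.41, adjusted p = 0.00143). Col7a1, the anchoring fibril chain that ties epithelium to the underlying matrix, rose by a log2 fold change of 1.24 (SE 0.35, adjusted p = 0.0335), from 1.94, 3.67 and 5.43 CPM to 8.04, 7.51 and 8.85 CPM. The 3 lines differed at day 0 and were close at day 7, and the call was lost without shControl. The summed level of the 5 epithelial markers listed was 0.203 to 9.05 CPM over the libraries, and 2 of them had 0 counts everywhere. Col28a1, a chain known from nerve, stood at 64.7, 11.2 and 15.3 CPM at day 0 and 5.18, 6.83 and 8.28 CPM at day 7. Only shControl at day 0 stood apart, and the pooled effect of -1.71 had an adjusted p of 0.0551. Col17a1, a transmembrane collagen of epithelial hemidesmosomes, had 11 to 38 counts in each library.

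Type VI collagen, whose 3 main chains assemble into beaded filaments around cells, differed most between the days in the shMLL1 line. Col6a1 (chromosome 10) stood at 926, 861 and 199.97 CPM at day 0 and at 821, 804 and 1083 CPM at day 7. Col6a2, its neighbour on the same strand 85161 bp away, stood at 691, 589 and 119 CPM at day 0 and 445, 413 and 637 CPM at day 7. For both genes the shMLL1 library of day 0 was far below the other 5 libraries, and the shMLL1 library of day 7 was not. Within shMLL1, Col6a1 was 5.41-fold and Col6a2 5.35-fold higher at day 7, whereas shControl and shNFIB differed by log2 changes of -0.17 and -0.10 for Col6a1 and -0.64 and -0.51 for Col6a2. Col6a3, on chromosome 1, stood at 470, 1069 and 335 CPM and then 551, 950 and 698 CPM, with a shMLL1 change of 1.06. None of the 3 was called by day over the lines.

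The multiplexins, basement membrane proteoglycans whose C-terminal fragments include endostatin, had different patterns. Col15a1 stood at 35.5, 15.01 and 5.80 CPM at day 0 and 56.0, 18.5 and 38.1 CPM at day 7, higher in every line by log2 changes of 0.66, 0.30 and 2.72 (pooled adjusted p = 0.0744). Col18a1, which carries endostatin, stood at 31.5, 26.0 and 53.2 CPM and then 42.2, 14.1 and 23.2 CPM. It was higher at day 7 in shControl and lower in both knockdown lines.

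**Figure D5:**
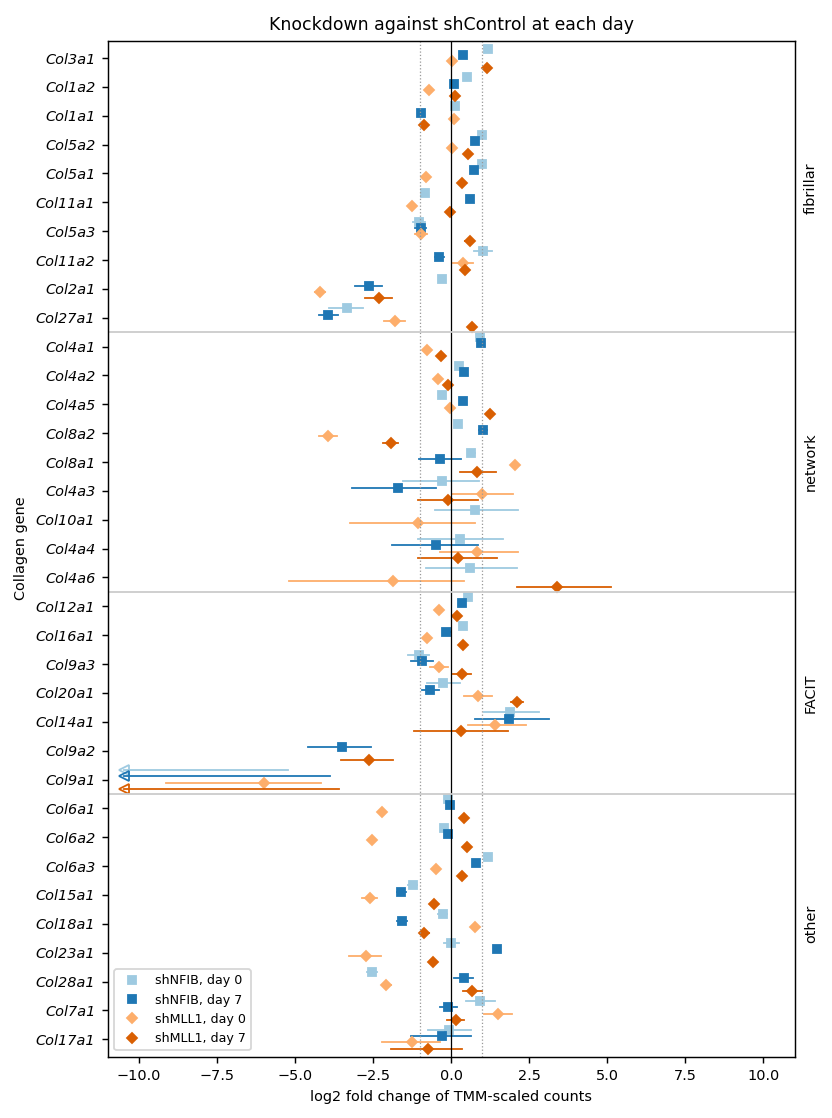
Log2 fold change of each knockdown line over shControl at day 0 and at day 7 for collagen genes with at least 10 counts in the pair, with 95% counting intervals as bars, dotted lines at 2-fold and open arrows at the axis edge for genes with 0 counts in a library. Col27a1 and Col9a1 lie far to the left in shNFIB at both days, and Col2a1, Col8a2, Col6a1 and Col6a2 lie to the left in shMLL1 at day 0.

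The shNFIB line was compared with shControl to ask which collagen genes differ where NFIB is depleted. The comparisons of both knockdown lines share the shControl libraries. At day 0, 4 of 34 counted collagen genes were more than 2-fold higher and 6 more than 2-fold lower in shNFIB, where 7.49% of all genes were higher and 6.8% lower. At day 7 the counts were 3 higher and 7 lower of 33, against 8.37% and 13.6% of all genes. The median log2 difference of the collagen genes was 0.17 at day 0 and -0.11 at day 7, beside 0.08 and -0.01 over all genes. With both days pooled in the quasi-likelihood test of edgeR, 0 of 34 collagen genes were called higher and 1 lower, against 0.113% and 0.305% of all genes. At an unadjusted p of 0.05 there were 4 higher and 7 lower of the 34, beside 1082 and 995 of all 16742 genes tested. DESeq2 called 1 higher and 2 lower of 34, beside 299 and 315 of 16092 genes.

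The gene called lower was Col9a1, with 142 counts in shControl against 0 in shNFIB at day 0 and 58 against 0 at day 7. It passed the filter on low counts only through the 2 shControl libraries, where it is high, so the call is given as a description. This is at least 46.8-fold lower at day 0 and at least 18.7-fold lower at day 7, against a floor of 3 counts in the shNFIB library. Col27a1 was 10.2-fold lower at day 0, with 1.08 against 10.99 CPM, and 15.3-fold lower at day 7, with 3.25 against 49.8 CPM, but its pooled effect of -3.71 (SE 0.69) had an adjusted p of 0.0898. Col9a2 was lower at day 7, with 10 against 117 counts. Col15a1 was lower by log2 differences of -1.24 and -1.60 at day 0 and day 7, Col5a3 by -1.03 and -0.97, and Col9a3 by -1.04 and -0.94, with adjusted p values of 0.336, 0.349 and 0.305 in the same test.

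Several abundant chains had higher values in shNFIB. Col4a1 was higher by log2 differences of 0.93 at day 0 and 0.96 at day 7 (adjusted p = 0.305), Col6a3 by 1.19 and 0.79 (adjusted p = 0.343), and Col5a2 by 0.99 and 0.75 (adjusted p = 0.345). These genes code for basement membrane, pericellular and fibril chains, and none passed the test. Col3a1 was past 2-fold at day 0 alone, with a log2 difference of 1.16, and Col1a1 was 1.98-fold lower at day 7. Col23a1 was higher at day 7, with 123 against 44.9 CPM, after 8.68 against 8.64 CPM at day 0. Col14a1, a FACIT chain of tendon and skin, had 15 counts in shControl and 55 in shNFIB at day 0 and 9 and 32 at day 7, with an adjusted p of 0.28.

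Promoter windows of RefSeq (250 bases before to 50 after the transcript start, GRCm38.p6) were available for 35 of the 44 genes, as 38 windows of 300 bases. They were searched on both strands for the palindromic NFI site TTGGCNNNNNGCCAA, the NFI core motif TTGGCA, the TATA box TATAAA, the CCAAT box CCAAT and the GC box GGGCGG. The core motif is a single arm of the NFI site, TTGGC, with a fixed A after it, so an arm followed by another base was not counted. The full NFI site was in 0 of the 35 genes and in 0.0444% of the 27025 genes with a window. The core motif was in 7 genes, or 20.0% against 16.15% of all genes: Col16a1, Col1a2, Col27a1, Col28a1, Col4a5, Col6a5 and Col9a1. GC boxes were in 22 genes, or 62.86% against 38.2%, TATA boxes in 5 (14.29% against 15.67%) and CCAAT boxes in 13 (37.14% against 41.06%), and the median GC content was 59.9% for member windows and 52.7% for all. The core motif can overlap a full site, and a match of letters is a description of the window only. Below are the windows of Col9a1 and Col27a1, the 2 genes with the lowest shNFIB to shControl values in the test, of Col8a1, the gene with the largest fall by day, and of Col4a1, whose window shares 78 bases with that of Col4a2 on the other strand. Each is written 5′ to 3′ on the strand of the gene, with matches to any of the searched motifs in capitals. The Col9a1 window is the one of its 2 windows that holds the core motif (chr1:24194953-24195252, plus strand), that of Col27a1 is chr4:63215162-63215461 (plus strand), that of Col8a1 is chr16:57754688-57754987 (minus strand) and that of Col4a1 is chr8:11312777-11313076 (minus strand).
Col9a1: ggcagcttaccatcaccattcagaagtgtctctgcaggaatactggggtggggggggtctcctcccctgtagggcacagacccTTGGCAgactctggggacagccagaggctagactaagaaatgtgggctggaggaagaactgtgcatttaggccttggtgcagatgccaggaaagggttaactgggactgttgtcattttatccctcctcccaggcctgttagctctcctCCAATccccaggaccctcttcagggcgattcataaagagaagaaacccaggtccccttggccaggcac
Col27a1: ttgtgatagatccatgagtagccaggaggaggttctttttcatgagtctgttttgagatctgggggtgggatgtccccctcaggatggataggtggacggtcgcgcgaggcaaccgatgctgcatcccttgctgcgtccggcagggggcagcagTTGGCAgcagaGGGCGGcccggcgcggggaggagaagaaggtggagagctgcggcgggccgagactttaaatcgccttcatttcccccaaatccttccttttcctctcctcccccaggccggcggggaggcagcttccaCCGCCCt
Col8a1: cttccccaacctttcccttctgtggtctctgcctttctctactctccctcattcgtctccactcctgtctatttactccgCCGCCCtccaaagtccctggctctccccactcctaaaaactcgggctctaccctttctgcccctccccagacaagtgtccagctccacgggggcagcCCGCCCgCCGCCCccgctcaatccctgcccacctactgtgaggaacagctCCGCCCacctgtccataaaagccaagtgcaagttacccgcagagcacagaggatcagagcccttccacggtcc
Col4a1: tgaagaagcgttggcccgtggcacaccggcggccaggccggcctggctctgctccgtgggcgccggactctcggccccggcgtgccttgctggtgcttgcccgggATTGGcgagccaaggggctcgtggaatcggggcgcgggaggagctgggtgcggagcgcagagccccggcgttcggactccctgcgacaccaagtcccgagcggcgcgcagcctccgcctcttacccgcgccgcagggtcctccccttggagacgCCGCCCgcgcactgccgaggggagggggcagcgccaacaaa

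In the shMLL1 line the day 0 library differed most from shControl. At day 0, 3 of 34 counted collagen genes were more than 2-fold higher and 13 more than 2-fold lower, where 11.6% of all genes were higher and 9.47% lower. At day 7 there were 4 higher and 4 lower of 34, against 9.36% and 7.07% of all genes. The median log2 difference was -0.74 at day 0 and 0.26 at day 7, beside -0.03 and -0.02 over all genes. The chains outside the fibrillar, network and FACIT classes had 1 higher and 6 lower of 9 at day 0, with a median of -2.08. With both days pooled, the quasi-likelihood test of edgeR called 0 collagen genes higher and 0 lower, against 0.0119% and 0.0179% of all genes. At an unadjusted p of 0.05, 2 were higher and 5 lower of 34, beside 694 and 846 of all 16742 genes tested. DESeq2 called 2 higher and 3 lower of 34, beside 171 and 239 of 16655 genes.

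At day 0 the lower chains of shMLL1 included members of several classes. Col2a1 was 18.5-fold lower than in shControl (12.0 against 223 CPM), Col8a2 15.5-fold lower (3.68 against 57.0 CPM), Col6a2 5.80-fold lower and Col6a1 4.63-fold lower. Of these, only Col2a1 and Col8a2 were also lower past 2-fold at day 7, with log2 differences of -2.31 and -1.94, and Col6a1 and Col6a2 were then at 0.40 and 0.52. Col8a2 and Col2a1 had adjusted p values of 0.0861 and 0.272 over both days. Col9a1 was lower here too, with 2 against 142 counts at day 0 (log2 difference -5.98, 95% counting interval -9.13 to -4.19) and 0 against 58 at day 7, which is at least 15.5-fold lower. Col15a1, Col23a1 and Col27a1 were lower at day 0 by log2 differences of -2.61, -2.74 and -1.80.

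Some chains had higher values in shMLL1. Col8a1 was 4.12-fold higher at day 0 (142 against 34.4 CPM) and stood at 2.70 against 1.51 CPM at day 7, with an adjusted p of 0.176. The other 2 genes past 2-fold at day 0 were Col7a1, with 5.43 against 1.94 CPM, and Col14a1, with 38 against 15 counts. Col20a1 was higher by log2 differences of 0.85 at day 0 and 2.11 at day 7 (adjusted p = 0.252). At day 7 the shMLL1 line also had higher Col4a6 (43 against 5 counts, log2 difference 3.39), Col3a1 (1.13) and Col4a5 (1.25), the last 2 being genes that were lower at day 7 in shControl than at day 0 and differed less between days in shMLL1. The summed mesenchymal markers were 5960 CPM in shControl, 8635 in shNFIB and 3031 in shMLL1 at day 0, and 3133, 4318 and 2898 CPM at day 7. Vim, picked out after its values were seen, made up 4153, 5980 and 1943 CPM of these sums at day 0 and 1813, 2206 and 1176 CPM at day 7. Thy1 was the 1 mesenchymal marker called in a knockdown line, higher in shNFIB by a log2 fold change of 2.33 (adjusted p = 0.0266 in the quasi-likelihood test). It stood at 298 CPM in shNFIB against 68.1 in shControl at day 0, and at 170 against 27.9 CPM at day 7. The 8 markers did not share an order of the lines, Pdgfra standing at 321, 342 and 614 CPM at day 7, and their part in these differences was not tested.

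Genes that build, process, bind and degrade collagen were counted from lists chosen by function. Of 22 genes for chain folding and modification, 21 were tested, and by day none rose and 9 fell, with a median of -0.55, where 16.9% of all genes tested were called higher and 16.7% lower. The largest falls were those of the prolyl 4-hydroxylase subunit genes P4ha3 (-1.45, adjusted p = 0.0446) and P4ha1 (-1.26, adjusted p = 0.0328), and the most positive day effects were 0.44 for Creb3l1, a transcription factor of the secretory pathway, and 0.33 for Tmem38b, an endoplasmic reticulum ion channel, neither called (adjusted p = 0.182 and 0.447). Among 12 tested of 15 genes for propeptide processing and crosslinking, 3 rose and 4 fell, with a median of 0.31, beside the same 16.9% and 16.7% of all genes. Bmp1, the procollagen C-proteinase, rose by a log2 fold change of 1.36 (adjusted p = 0.0161), while Loxl4, a lysyl oxidase, and Pcolce2, an enhancer of C-propeptide cleavage, had effects of -3.05 and -2.06 (adjusted p = 0.000398 and 0.0176). Mep1a, a meprin protease, had the next highest value, 1.25, without a call (adjusted p = 0.0923).

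Of the 11 collagen receptor genes, 8 were tested, 1 rose and 3 fell, with a median of -0.58, again beside 16.9% and 16.7% of all genes. Itga10, an integrin subunit for cartilage collagen, rose by 1.60 (adjusted p = 0.00975), and Cspg4, a proteoglycan that binds type VI collagen, and Itga11, the integrin subunit for fibrillar collagen, had effects of -2.60 and -2.18 (adjusted p = 0.000569 and 0.0122). Mrc2, an endocytic collagen receptor, stood at 0.45 with an adjusted p of 0.157. All 12 turnover genes were tested, and 6 rose and 3 fell, with a median of 1.56, where 16.9% of all genes were called higher and 16.7% lower. The largest rises were those of the protease inhibitor gene Timp4, with 1, 1 and 3 counts at day 0 and 742, 155 and 151 at day 7, and of the collagenase gene Mmp8, with 0, 0 and 3 counts and then 6, 85 and 79, both of which passed the filter only through day 7 libraries. The largest falls were those of Mmp16, a membrane-bound matrix protease (-2.25, adjusted p = 0.00218), and Timp1, a protease inhibitor (-1.78, adjusted p = 0.00174). In these 4 lists no gene was called in either knockdown line.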

How the data were processed

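RNA-seq was done on 6 libraries, 1 for each of 3 lines at day 0 and day 7. The authors deposited raw counts per gene. According to the study's methods and processing notes, paired reads of 100 bp were trimmed with Trimmomatic 0.39 and aligned to GRCm38 (mm10) with HISAT2 2.2.1, reads with a mapping quality above 30 were kept with SAMtools 1.12, PCR duplicates were removed, and genes were counted with HTSeq 0.11.1. The annotation release and the strand setting are not given in the sources used here. How the removal of duplicates bears on the most abundant collagen genes was not tested.

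Counts were scaled by TMM in edgeR 4.0.16 (R 4.3.3), and CPM was computed from the library totals multiplied by their TMM factors. For pairs of libraries, log2 fold changes were computed with a prior count of 0.125, with exact (Clopper-Pearson) 95% intervals for counting error, and a gene was counted past 2-fold where the pair held at least 10 counts. Folds against 0 counts were set against a floor of 3 counts in that library. The quasi-likelihood test of edgeR was fitted to 16742 genes with the line and the day as terms (2 residual degrees of freedom, biological coefficient of variation 0.2805), with Benjamini-Hochberg adjustment over all genes and a threshold of 0.05. The p-values measure the spread between these libraries, which are 1 per line and day. That spread includes any difference between the lines in their day change, which the model counts as error. The labels give the line of each library, so the line paired the days, and deviations of the 2 libraries of a line from their day's mean correlated across genes with r = 0.404, 0.426 and 0.264. The fits were tested on simulated data first.

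Coordinates and lengths came from GENCODE M21 and promoter windows from RefSeq, and the classes were assigned by gene symbol from a separate list. Any collagen gene with at least 10 counts in some library could be named with its values, and for each other list the 2 tested genes with the largest day effect in each direction. The members and lists were chosen with earlier results of these data known. Alternatives were DESeq2 1.42.0, scaling to library size, other filters, another prior count, an assumed variation of 0.2, and leaving out lines or libraries.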

Additional observations from a re-analysis of the deposited data

Results flagged for a closer look

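For 7 collagen genes the day 7 library lay above the day 0 library in one line and below it in another, with counting intervals on opposite sides of 0. The difference between lines was not tested, since each line has 1 library per day. The largest gap was that of Col4a6, where the log2 change was 4.64 in shMLL1 and -1.86 in shNFIB, a gap of 6.50 that rests on 43 counts or fewer in every library. Col6a2 (2.42 in shMLL1, -0.64 in shControl) and Col6a1 (2.44 in shMLL1, -0.17 in shControl), the paired type VI chains, had gaps of 3.06 and 2.61. Col8a2 had a gap of 2.01, from 0.93 in shMLL1 to -1.08 in shControl. Col6a3 had a gap of 1.23 and Col5a1 one of 1.39, each between a higher value in shMLL1 and a lower one in shNFIB. Col18a1 had a gap of 1.62, from 0.42 in shControl to -1.20 in shMLL1.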

How the results depend on the processing

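Of 136 alternative values of counts, shares and ratios, 87 kept their direction and stayed close to the value reported, and of 327 alternative tests of single genes 234 stayed on their side of the threshold, 76 passed it and 17 no longer did. The sign of a gene's effect differed in 71 of 911 fits, none of them called in either fit. Leaving out a line or a library gave 4 to 7 collagen genes higher and 2 to 11 lower by day, 0 to 2 higher and 1 to 5 lower in shNFIB, and 0 to 2 higher and 1 to 8 lower in shMLL1. The day calls were fewest without shControl, with 4 higher and 2 lower, and the count of 11 lower came without shMLL1. The 5 lower in shNFIB came without the shMLL1 library of day 0 or of day 7, and the 8 lower in shMLL1 without its own day 7 library, where the remaining library of that line is assumed to vary like the others. Without the line as a replicate block, 4 genes were higher and 7 lower by day, and 4 and 5 of these were among the genes called with the block, which leaves out Col27a1, Col7a1, Col11a1 and Col4a5. With every gene of at least 1 count, the test gave 11 lower by day, 4 lower in shNFIB, and 2 higher and 5 lower in shMLL1. DESeq2 gave 9 higher and 11 lower of 35 by day, beside 3070 and 3273 of 18344 genes. It gave 1 higher and 2 lower in shNFIB, and 2 higher and 3 lower in shMLL1. Library size alone gave 4 lower by day, without Col11a1, Col12a1 and Col16a1. Only the 4 libraries of the lines compared gave 5 lower in shNFIB and 3 lower in shMLL1. Counting genes of at least 1 count in a pair gave 7 lower at day 7 in shMLL1, 6 higher in shMLL1 at day 0, and 7 and 5 higher in shNFIB at day 0 and day 7. An exact test with an assumed variation of 0.2 gave 2 higher in shMLL1 at day 7, 0 higher and 3 lower in shNFIB at day 0, and 1 higher in shNFIB at day 7.

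Of protein-coding counts, collagen genes took 1.35%, 1.87% and 0.935% at day 0 and 1.09%, 1.11% and 1.26% at day 7 in shControl, shNFIB and shMLL1. With the longest transcript as length, the median ratio was 0.461 for Col1a1 to Col1a2, 1.74 for Col4a1 to Col4a2, 0.590 for Col5a1 to Col5a2, 2.02 for Col6a1 to Col6a2, 0.376 for Col6a3 to Col6a1 and 0.420 for Col8a1 to Col8a2. Each condition has 1 library, so no pair of libraries has a replicate check. Genes with few counts, such as Col4a6, Col9a1 and Col9a2, have wide counting intervals.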
